A study of Mus musculus with 27 samples.

Results

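The genes described here are the 245 protein-coding genes whose listed start lies on mouse chromosome 9 between positions 73009752 and 107558698 (GRCm39), a stretch of 34.5 Mb, out of 1209 protein-coding genes on chromosome 9 and 21834 in the long RNA table. The stretch was chosen from values of these data: its bounds are fixed positions drawn from an earlier analysis of genes of all types called between Strep1 and WT in 4n cells. Here 1 further protein-coding gene was called in 4n cells in the 10 Mb past the upper bound. Genes whose names start with Cfap, Dnah, Rpl, Rps or Psm were left out, which removed Rpl29. The 4n comparison of Strep1 with WT is therefore given as a description without a test. The tests within 1n cells use no library that set the bounds. The test of Strep2 in 4n cells uses the same 4n WT libraries, and the tests between populations use 4n Strep1 or 4n WT libraries, so these are not independent of the choice of genes. Of the 245 genes, 2 have an identifier and no name. By identifier, 244 were found in the GENCODE annotation of GRCm39, and in all 244 the exon whose position the table lists lies inside the annotated gene. Pccb (ENSMUSG00000032527), Parp3 (ENSMUSG00000023249), Col6a5 (ENSMUSG00000091345) and Rrp9 (ENSMUSG00000041506) are followed in most detail. These 4 were named beforehand, with earlier results of these data known. Values of 1n cells may have entered that choice, so their p-values there are not taken as independent of it.

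Strep1 and Strep2 are mouse knock-in lines that carry the 8-amino acid Strep II tag, a short affinity peptide, inside the N-terminal region of MIWI, each line at its own position. WT mice carry untagged MIWI. Strain RP68 stands beside Strep1 in the genotype labels and RP85 beside Strep2. The growth protocol instead names a pair of strains, RP85 and RP86, so the tag position of each line cannot be assigned. The labels state no age, background strain or zygosity. Long RNA was read in 18 libraries from testis cells sorted by DNA content into 1n cells, which the labels call spermatids, and 4n cells, which they call spermatocytes, with 3 libraries for each of Strep1, Strep2 and WT in each population. A further 5 libraries hold small RNA from MIWI purified from Strep1 testes. The labels do not tie libraries to individual animals. The p-values therefore reflect how much libraries of a group differed, and this spread may be technical.

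MIWI, the protein of Piwil1, is a PIWI-clade Argonaute that binds piRNAs in meiotic and haploid male germ cells and can cut RNA that pairs with them. Spermatocytes take replicated chromosomes through meiosis, and spermatids are the haploid cells that remodel into sperm. Genes along a chromosome stretch share their position and in general no pathway, so the members include metabolic enzymes, receptors, ribosome assembly factors, DNA repair proteins, collagens and motors side by side.

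In the long RNA libraries 1 RPM, a read number that the authors scaled to the library total, stood for 33 to 63.2 reads, estimated from the value of 1 read, and libraries of the same group correlated at 0.994 to 0.997 across genes. The 8 spermatid markers summed to 3419 to 6196 RPM in the 9 1n libraries and to 106 to 206 RPM in the 9 4n libraries. The 8 spermatocyte markers summed to 226 to 276 RPM in the 1n libraries, and in 4n cells to 1843 to 2150 RPM in Strep1, 2033 to 2321 RPM in Strep2 and 1539 to 1805 RPM in WT, so that WT lay below both lines. Sertoli markers summed to 5.28 to 7.80 RPM in 1n Strep1, 6.51 to 6.97 RPM in 1n Strep2 and 8.03 to 13.1 RPM in 1n WT, again without overlap between either line and WT. In 4n cells they summed to 8.18 to 9.23 RPM in Strep2 and 5.87 to 7.50 RPM in WT, and spermatogonia markers to 8.08 to 10.5 RPM in Strep2 and 6.20 to 7.14 RPM in WT. The part of these shifts in the results was not tested. Limma called no single marker it could test between Strep1 or Strep2 and WT, but it could test only 3 of 8 Sertoli markers in 1n and 4 in 4n cells, 2 of 6 Leydig markers in 1n and 1 in 4n, and 3 of 8 macrophage and blood markers in 1n and 2 in 4n cells. Library names divide the long RNA into 2 series: one holds every 4n library together with those of 1n Strep1, and the other holds 1n Strep2 and 1n WT. In 1n cells Strep1 therefore cannot be told apart from its library series, whereas the 4n comparisons and 1n Strep2 against WT lie within one series. In sorted bulk cells, fewer cells of a type and less RNA per cell cannot be told apart.

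Upstream sequences are shown for Pccb, Ephb1 and Rrp9. All 3 rose in 1n Strep1 cells, and Ephb1 was the member most like Pccb across libraries. The Rrp9 sequence lies between the canonical starts of Rrp9 and of Parp3, a gene that moved the other way. Each is the 250 bases before the first base of the canonical transcript, read from the GRCm39 genome 5′ to 3′ on the strand of the gene. Capitals mark the letters CCAAT on either strand, so that ATTGG is the same motif on the opposite strand. Pccb is chr9:100916952-100917201 on the minus strand, Ephb1 is chr9:102231899-102232148 on the minus strand and Rrp9 is chr9:106354193-106354442 on the plus strand.
Pccb: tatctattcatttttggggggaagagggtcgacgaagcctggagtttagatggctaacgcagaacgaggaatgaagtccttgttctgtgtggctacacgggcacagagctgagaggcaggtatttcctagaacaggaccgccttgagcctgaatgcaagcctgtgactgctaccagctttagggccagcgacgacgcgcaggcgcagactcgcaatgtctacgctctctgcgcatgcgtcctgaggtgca
Ephb1: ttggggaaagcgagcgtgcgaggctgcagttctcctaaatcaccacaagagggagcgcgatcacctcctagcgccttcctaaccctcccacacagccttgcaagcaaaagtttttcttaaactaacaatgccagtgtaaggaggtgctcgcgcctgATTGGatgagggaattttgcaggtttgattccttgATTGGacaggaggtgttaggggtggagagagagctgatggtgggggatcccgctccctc
Rrp9: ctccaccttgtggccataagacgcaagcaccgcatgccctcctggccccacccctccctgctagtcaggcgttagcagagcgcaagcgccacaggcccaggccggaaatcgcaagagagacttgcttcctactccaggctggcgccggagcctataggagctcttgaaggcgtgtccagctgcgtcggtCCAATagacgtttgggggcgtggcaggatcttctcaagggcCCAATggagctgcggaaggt
The Pccb sequence is 55.2% G and C with 15 CG dinucleotides, the Ephb1 sequence 53.6% with 9, and the Rrp9 sequence 62.4% with 15, beside medians of 53.2% and 8 over 21770 promoter windows of the same length. CCAAT was found on either strand in 36.5% of those windows. It occurred 2 times upstream of Ephb1, 2 times upstream of Rrp9 and not in the Pccb window. GGGCGG, in 36.3% of windows, TGACGTCA, in 1.69%, and AACNGTT, in 3.66%, were searched on both strands and matched in none of these 3 windows. The motifs do not overlap each other in these windows, and a match describes letters only.

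In 1n cells the stretch held genes that were several-fold higher in Strep1 next to genes that were several-fold lower. Of the 175 members with enough signal to be tested, 32 were called between Strep1 and WT at a false discovery rate of 5% (limma on log2 RPM, Benjamini-Hochberg over all genes), which is 18.3%, beside 1.27% of all 20988 genes tested. The 15 higher members compare with 0.653% of genes called higher, and the 17 lower members with 0.615% called lower. The log2 fold changes of the called members ran from 0.62 to 3.35 among the higher genes, with a median of 1.12, and from -0.43 to -3.16 among the lower genes, with a median of -0.87. Among tested members 9.71% (17 genes) differed at least 2-fold, against 0.777% of all genes. In 57 of 175 tested members, 32.6%, the Strep1 libraries all lay outside the range of the 6 Strep2 and WT libraries of 1n cells, against 5.93% of all genes, and the 32 called members are among those 57. The median log2 fold change of tested members was 0.05, beside 0.03 over all genes tested. Without 1n Strep1 replicate 3, 21 members were called. Adamts7, Armc8, Col6a4, Cpne4, Mrap2, Mthfsl, Pik3cb and Tmod2 lost their call without at least 1 of the 6 compared libraries, with limma adjusted p of up to 0.138. Without some single libraries 9630041A04Rik, Tent5a, Col6a6 and Mrap2 fell below the filter and could not be tested. In 1n cells 9630041A04Rik reached the filter of 0.3 RPM only in Strep1 libraries, and Tent5a only in WT libraries. Both count among the 32 calls though they passed the filter only through the group where they were high. The largest fold, 3.35, is that of 9630041A04Rik. Lrrc1, Trim42 and Mrpl3 were not followed gene by gene in this way.

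A further 63 members were tested in neither population, 6 of them at 0 in all 18 libraries, and 15 were tested in 1n cells only, 7 in 4n cells only and 160 in both. Counting other gene types as well, 48 genes of the stretch were called in 1n cells: the 32 members, Rpl29 and 15 genes that are not protein-coding.

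The called genes were spread along the stretch. In successive windows of 5 Mb from its start, 6 of 20 tested members were called, then 1 of 18, 3 of 15, 2 of 13, 1 of 20, 6 of 27 and 13 of 62. In the 10 Mb of chromosome 9 before the stretch 5 of 79 tested protein-coding genes were called (6.33%), and in the 10 Mb after it 7 of 102 (6.86%). On all other chromosomes 112 of 13313 were called (0.841%). The plot of share called by window shows that the share inside the stretch was uneven, from 5% to 30%.

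**Figure D1:**
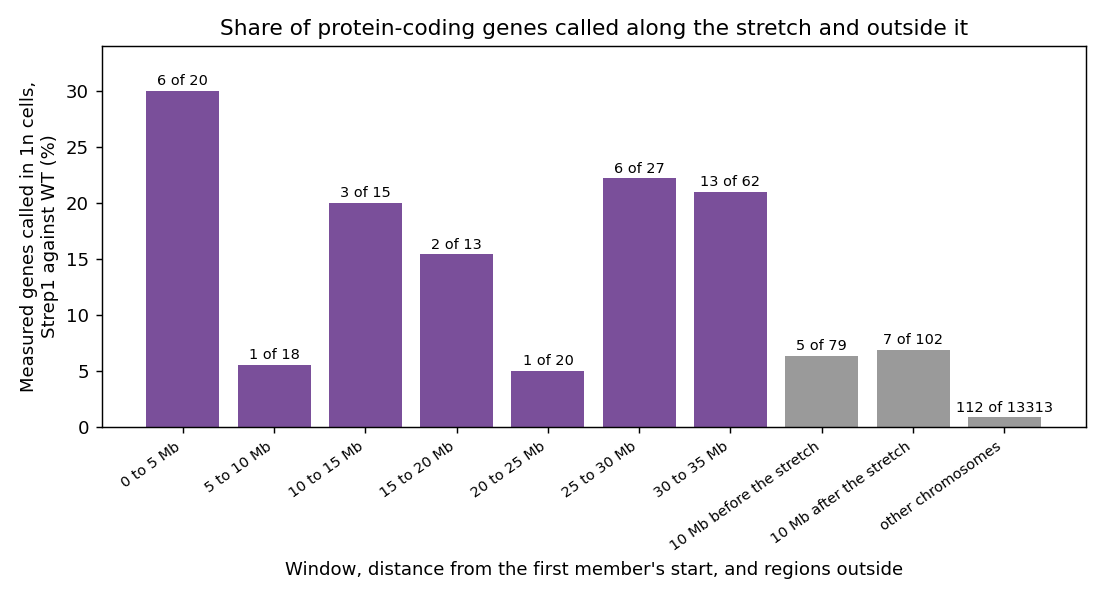
Share of tested protein-coding genes called between Strep1 and WT in 1n cells (limma, false discovery rate 5%), in percent, for successive 5 Mb windows of the chromosome 9 stretch (purple), the 10 Mb on either side and all other chromosomes (grey). Numbers above bars are genes called of genes tested. The windows at 0 to 5 Mb, 25 to 30 Mb and 30 to 35 Mb hold 25 of the 32 calls, and other chromosomes stand at 0.841%.

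**Figure D2:**
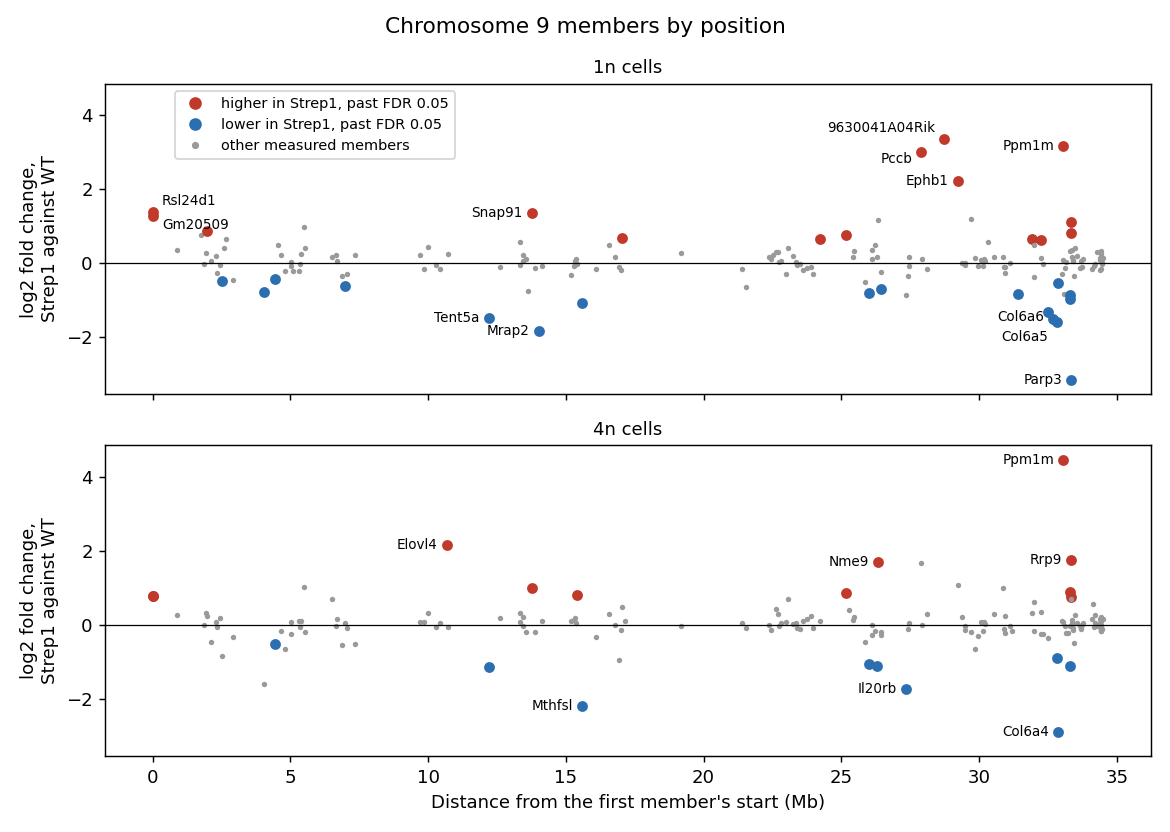
Log2 fold change of Strep1 against WT for each measured member by its distance in Mb from the first member's start, in 1n cells (top) and 4n cells (bottom). Red and blue points passed the false discovery rate of 5% as higher or lower in Strep1, and small grey points did not. Higher and lower genes lie interleaved, and most members lie near 0.

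The members are described below by gene list. Counts called in each list are to be set beside the 18.3% of all tested members that were called. No list was tested as a set, so these counts are not read as results about a function. Among metabolic enzymes, 20 of 23 listed members were tested in 1n cells, of which 2 rose and 2 fell. Pccb, the beta subunit of propionyl-CoA carboxylase, which handles propionyl-CoA from odd-chain fatty acids and branched-chain amino acids in mitochondria, had 13.5, 17.4 and 14.5 RPM in 1n Strep1 cells, against 1.88, 1.83 and 1.73 RPM in 1n Strep2 and 1.68, 2.60 and 1.23 RPM in 1n WT cells. Every Strep1 library stood several-fold above every other 1n library, and the Strep2 and WT ranges overlapped. The log2 fold change against WT was 3.01 (SE 0.20, limma adjusted p = 4.31e-07). Nmnat3, which makes NAD in mitochondria, averaged 30.2 ± 1.43 RPM in Strep1, 17.3 ± 0.178 RPM in Strep2 and 17.5 ± 0.980 RPM in WT 1n cells (SD, n = 3 each; log2 fold change 0.76, limma adjusted p = 0.000155). Abhd14a and Abhd14b, overlapping genes on opposite strands that encode alpha/beta hydrolase fold proteins, both fell, Abhd14a to 26.3 ± 1.16 RPM in Strep1, against 47.8 ± 5.58 RPM in WT, and Abhd14b to 1.46 ± 0.138 RPM in Strep1, against 2.89 ± 0.242 RPM in WT cells (SD, n = 3). The median log2 fold change of the 20 tested enzymes was -0.13.

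Of 17 signalling genes tested in 1n cells, 2 rose and 1 fell, with a median log2 fold change of 0.15. Ephb1, a receptor tyrosine kinase for membrane-bound ephrins, had 7.96, 7.06 and 7.03 RPM in Strep1 libraries, against 1.41, 1.33 and 1.73 RPM in Strep2 and 1.37, 1.89 and 1.26 RPM in WT (log2 fold change 2.21, SE 0.16, limma adjusted p = 1.53e-06). The groups were separated in the same way as for Pccb. Gpr62, an orphan G protein-coupled receptor, averaged 28.5 ± 2.01 RPM in Strep1 and 15.9 ± 1.43 RPM in WT cells (SD, n = 3 each). Pik3cb, a catalytic subunit of class I PI3 kinase, fell to 3.63 ± 0.270 RPM in Strep1, against 6.35 ± 1.19 RPM in WT cells, and lost its call without any one of 5 single libraries. Ppm1m, a serine/threonine phosphatase of the PPM family, is on none of the gene lists. It was measured at 1.78, 1.92 and 2.11 RPM in Strep1 and at 0.242, 0.170 and 0.114 RPM in Strep2 libraries. The WT libraries held 0.135, 0.320 and 0.0173 RPM, so the gene was near the detection limit outside Strep1 (log2 fold change 3.17, SE 0.37, limma adjusted p = 0.000173).

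**Figure D3:**
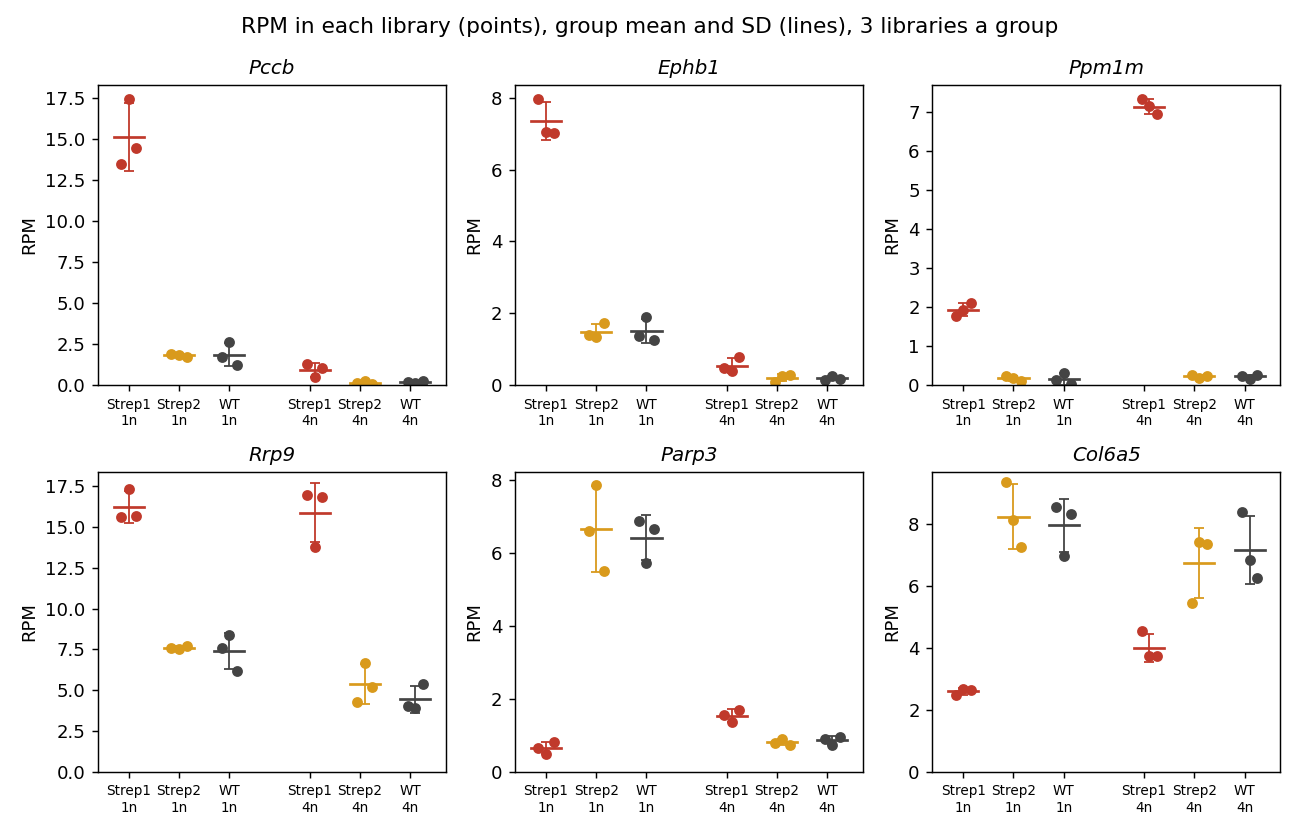
RPM of 6 members in each of the 18 long RNA libraries (points), with the group mean and SD (lines, n = 3), 1n groups on the left and 4n groups on the right of each panel, on a linear axis from 0. Within each population, Pccb, Ephb1, Ppm1m and Rrp9 stand above the other groups in the Strep1 libraries, and Col6a5 stands below them. Parp3 is below them in 1n cells and above them in 4n cells.

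Of 16 genes of RNA processing and the ribosome, 3 rose and 1 fell in 1n Strep1, with a median log2 fold change of 0.15. Rrp9, a protein of the U3 small nucleolar RNP that processes ribosomal RNA precursors, had 15.6, 17.4 and 15.7 RPM in Strep1, against 7.59, 7.55 and 7.72 RPM in Strep2 and 7.59, 8.41 and 6.20 RPM in WT libraries. The Strep1 libraries lay well above all others (log2 fold change 1.12, SE 0.11, limma adjusted p = 3.59e-05). Rsl24d1, an assembly factor of the large ribosomal subunit and the second member along the stretch, averaged 30.4 ± 0.763 RPM in Strep1, 11.4 ± 1.80 RPM in Strep2 and 11.5 ± 0.487 RPM in WT 1n cells (SD, n = 3 each; log2 fold change 1.38, limma adjusted p = 3.69e-06). Its exons overlap those of Gm20509 on the same strand, so the reads behind the rise of Gm20509 (log2 fold change 1.29) and of Rsl24d1 may be shared. Mrpl3, of the mitochondrial large ribosomal subunit, also rose (0.65), and Tent5a, a non-canonical poly(A) polymerase, fell by 1.47 on the log2 scale. Tent5a was low throughout, at 0.103 ± 0.0174 RPM in Strep1 and 0.454 ± 0.0207 RPM in WT 1n cells (SD, n = 3 each).

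Of 11 tested genes of the DNA damage response, 1 rose and 1 fell, with a median log2 fold change of -0.04. Parp3, an ADP-ribosyltransferase that acts at DNA breaks, had 0.644, 0.492 and 0.808 RPM in 1n Strep1 libraries, against 6.60, 7.85 and 5.49 RPM in Strep2 and 6.86, 5.73 and 6.66 RPM in WT libraries. All Strep1 libraries were far below all others (log2 fold change -3.16, SE 0.17, limma adjusted p = 6.71e-08). Nek11, a NIMA-related kinase of the damage checkpoint, averaged 58.2 ± 0.324 RPM in Strep1 and 37.5 ± 3.70 RPM in WT 1n cells (SD, n = 3 each; log2 fold change 0.62, limma adjusted p = 0.00142). Atr, the kinase that heads the replication stress and meiotic silencing response, was not called, at 164 ± 12.1 RPM in Strep1 and 159 ± 28.2 RPM in WT.

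Of 10 tested genes of collagens and extracellular matrix, none rose and 3 fell, and these 3 are the collagen VI chain genes Col6a4, Col6a5 and Col6a6, which lie near each other. The median log2 fold change of the 10 was 0.09. Collagen VI forms beaded filaments around cells. Col6a5 had 2.48, 2.67 and 2.64 RPM in 1n Strep1, against 9.34, 8.11 and 7.26 RPM in Strep2 and 8.56, 6.98 and 8.33 RPM in WT libraries (log2 fold change -1.59, SE 0.13, limma adjusted p = 3.36e-06). The Strep1 libraries lay below all 6 others without overlap. Col6a4 averaged 24.6 ± 1.67 RPM in Strep1, 40.8 ± 0.582 RPM in Strep2 and 35.4 ± 4.46 RPM in WT (SD, n = 3 each), and Col6a6 0.0376 ± 0.00278, 0.304 ± 0.0143 and 0.296 ± 0.117 RPM in those groups. The exons of Col6a6 overlap those of Pik3r4 on the opposite strand, and Pik3r4, the regulatory subunit of the class III PI3 kinase of endosomes and autophagy, fell as well, to 7.23 ± 0.600 RPM in Strep1, against 17.8 ± 0.778 RPM in WT (limma adjusted p = 8.11e-06). Peritubular and endothelial markers, which stand for cells that make matrix, summed to 16.5 to 20.3 RPM in 1n Strep1, 14.9 to 15.9 RPM in 1n Strep2 and 16.1 to 21.5 RPM in 1n WT libraries, and their part in these values was not tested.

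Myosin and membrane traffic genes numbered 19 tested, of which 2 rose and 3 fell, with a median log2 fold change of -0.01. Snap91, a clathrin assembly protein of endocytosis, averaged 4.48 ± 0.452 RPM in 1n Strep1 and 1.70 ± 0.371 RPM in 1n WT, and Myo5a, a processive actin motor that carries vesicles, averaged 6.07 ± 0.622 RPM in Strep1 and 3.24 ± 0.293 RPM in WT (SD, n = 3 each). The authors' deposited table did not call Snap91 in 1n cells and gave a log2 fold change of 0.09, on a scale unlike that of limma. Beside Pik3r4, the lower genes were Armc8, a subunit of the CTLH ubiquitin ligase (log2 fold change -0.70), and Tmod2, which caps actin filaments (-0.47). Among 10 chromatin and transcription genes, with a median of -0.09, only the SUMO protease gene Senp6 was called, at 46.0 ± 1.97 RPM in Strep1 and 70.2 ± 1.61 RPM in WT 1n cells (SD, n = 3 each). Of 14 tested genes of cilia, centrosome and cell division, with a median of 0.05, only Nek11 was called. The 5 tested genes of the testis-expressed IQ motif and trophoblast-like families and the 1 tested glutathione S-transferase were not called, and the 4 phospholipid scramblases were too low to test.

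The remaining called genes of 1n cells, like Ppm1m and Gm20509 above, belong to none of these lists. 9630041A04Rik had 1.23, 1.33 and 1.26 RPM in Strep1 libraries, against 0 to 0.0341 RPM in Strep2 and 0.0145 to 0.0807 RPM in WT, and its fold of 3.35 on the log2(RPM + 0.1) scale depends on the 0.1 added. Its annotated span of 81.4 kb overlaps that of Ephb1 on the opposite strand. Mrap2, an accessory protein of melanocortin receptors, was listed at 0 in all 3 Strep1 libraries and had 0.392, 0.417 and 0.227 RPM in Strep2 and 0.224, 0.523 and 0.121 RPM in WT libraries. Adamts7, a secreted metalloprotease (0.68), and Trim42, of the tripartite motif family (0.65), rose. Mthfsl (-1.07), Cpne4 of the copines (-0.82), Mlip, a lamin-interacting protein (-0.79), and Lrrc1 (-0.43) fell, each as a log2 fold change in 1n cells. In the authors' deposited table Mthfsl stood at -0.06 and Adamts7 at 0.13, and neither was called. Mrap2 was called there at -0.09, so sizes of fold are not compared between that table and limma.

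Of 182 members that the authors' deposited table lists for 1n cells, it calls 33 between Strep1 and WT, 14 higher and 19 lower, beside 2.26% of all genes it lists. The limma and deposited calls share 27 members, all with the same sign. Both start from the same libraries.

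Strep1 was also set against the other tagged line. Of 175 members, 29 were called between Strep1 and Strep2 in 1n cells, which is 16.6%, beside 1.27% of all genes. There were 15 higher members, against 0.562% of genes called higher, and 14 lower, against 0.705% called lower. Pccb (log2 fold change 2.99), Parp3 (-3.18), Col6a5 (-1.62) and Rrp9 (1.08) were all among them, with limma adjusted p-values of 4.29e-07, 5.72e-08, 2.45e-06 and 4.17e-05 in that order. This comparison shares its Strep1 libraries with that of Strep1 and WT and also coincides with the library series.

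Strep2 showed no called member in either population. In 1n cells 0 of 175 members were called between Strep2 and WT, beside 0.1% of all genes (limma), and 12 members had an unadjusted p under 0.05, 6.86% against 9.04% of all genes. In 4n cells, against the WT libraries that also set the bounds, 0 of the 167 tested members were called, beside 0.152% of all genes, and 20 had an unadjusted p under 0.05, 12% against 14.7% of all genes. The smallest adjusted p among members was 0.285 in 1n and 0.157 in 4n cells. In the authors' deposited table, Filip1 and Slc25a36 passed in 1n cells with log2 fold changes of -0.65 and -0.58 (0.536% of all genes listed there), and Rab6b and Nprl2 passed in 4n cells with 0.76 and 0.30 (2.69%). None of these 4 passed in limma.

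At the 32 members called in 1n Strep1, the 1n log2 fold change of Strep2 against WT ran from -0.75 to 0.29 with a median of 0.04, and 31 of 32 were below 0.5 in size. For Pccb it was 0.02 (SE 0.20), for Parp3 0.02 (SE 0.17), for Col6a5 0.03 (SE 0.13) and for Rrp9 0.03 (SE 0.11). The exception was Tent5a, which had 0.242, 0.189 and 0.273 RPM in 1n Strep2 and 0.431, 0.465 and 0.468 RPM in 1n WT libraries.

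The 4n libraries, whose Strep1 and WT values set the bounds, gave the following description. In 4n cells 20 of 167 tested members passed the same call rule between Strep1 and WT, 11 higher and 9 lower, and the whole table passed at 0.867%, with 0.536% higher and 0.33% lower. Including other gene types, 35 genes of the stretch passed: the 20 members, Rpl29 and 14 others. In 4n cells 24 members, Pccb and Ephb1 among them, were called in the authors' deposited table, beside 1.09% of all genes it lists. It shares 16 of the 20. The other 4, Col6a5, Mthfsl, Mras and Gm20509, were not among its calls. Col6a5 stood there at a log2 fold change of -0.03, Mthfsl at -0.01 and Mras at -0.08, on a scale unlike that of limma.

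The largest 4n difference was that of Ppm1m, which had 7.33, 7.15 and 6.96 RPM in Strep1, against 0.250, 0.188 and 0.229 RPM in Strep2 and 0.243, 0.164 and 0.253 RPM in WT. In 4n cells this gene reached the filter of 0.3 RPM only in Strep1 libraries. The largest decrease was that of Col6a4, at 1.99, 1.07 and 1.98 RPM in Strep1, against 11.0, 14.0 and 11.4 RPM in Strep2 and 13.0, 11.3 and 12.0 RPM in WT. In both genes the 3 Strep1 libraries did not overlap the others. Rrp9 had 17.0, 13.8 and 16.9 RPM in Strep1 and 4.03, 3.89 and 5.40 RPM in WT 4n libraries, and Pik3cb 20.6, 21.7 and 21.4 RPM in Strep1 and 46.6, 37.8 and 41.7 RPM in WT. Elovl4, an elongase of very long-chain fatty acids, averaged 1.76 ± 0.122 RPM in Strep1 and 0.304 ± 0.0481 RPM in WT 4n cells, and was too low to test in 1n cells. Il20rb, a cytokine receptor subunit, averaged 0.803 ± 0.133 RPM in Strep1 and 2.74 ± 0.490 RPM in WT 4n cells (SD, n = 3 each). Further members on this list were Zfp949 (log2 fold change 0.82), Nme9 (1.71) and Pcbp4 (0.88) above WT and Mras (-1.09) and Mthfsl (-2.19) below it, each on the limma scale.

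The 2 populations can be set side by side for Strep1 against WT, since they share no library. Of the 32 members called in 1n cells, 14 also passed the rule in 4n cells in the same direction, 14 were measured there and did not pass, and 4 were too low to test. None passed in opposite directions. Over all genes, 213 calls of 1n cells were tested in 4n cells, and 81 of them (38%) passed there in the same direction, against 14 of 28 members (50%). The 4n calls chose the stretch, so nothing is read from that difference. The 14 in both were Gm20509, Rsl24d1, Snap91, Nmnat3, Ppm1m, Gpr62 and Rrp9, all higher, and Lrrc1, Tent5a, Mthfsl, Pik3cb, Col6a5, Col6a4 and Abhd14a, all lower. Of the 28 measured in both, 26 had the same sign of fold (92.9%), beside 85.9% of the 213. The exceptions were Senp6, with a 4n log2 fold change of 0.06, and Parp3, with 0.71. Over all 160 members measured in both populations, 102 had the same sign (63.7%, beside 53.6% of all 16689 genes), and the folds correlated with Pearson's r = 0.66 and Spearman's rho = 0.55, which is a description over linked genes and not a test.

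**Figure D4:**
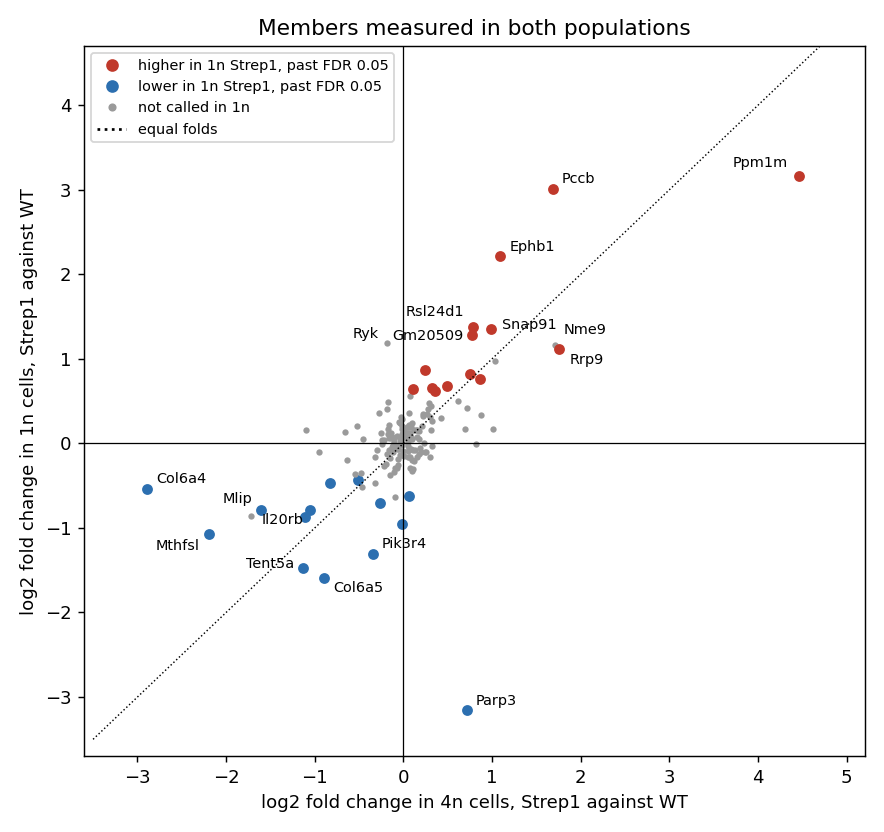
Log2 fold change of Strep1 against WT in 4n cells (x) and in 1n cells (y) for the 160 members measured in both. Red and blue points were called higher or lower in 1n Strep1 cells, grey points were not, and the dotted line marks equal folds. Most called genes lie in the upper right or lower left. Of the called genes Parp3 stands apart at the lower right, and Senp6 lies there just beside the vertical axis line.

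For some members the estimated folds of the 2 populations were unlike in size. Col6a4 stood at a log2 fold change of -0.54 in 1n and -2.89 in 4n cells, while Pccb stood at 3.01 in 1n and 1.68 in 4n cells. Pccb was low in all 4n groups, with 1.29, 0.463 and 1.04 RPM in Strep1 and 0.210, 0.144 and 0.221 RPM in WT. Ephb1 was also low there, with 0.472, 0.378 and 0.773 RPM in Strep1 and 0.132, 0.246 and 0.174 RPM in WT. At such low values the 0.1 RPM added before taking logs makes a fold smaller. Whether any of these folds differs between the populations was not tested.

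Parp3 and Rrp9 lie head to head. The first base of the canonical Parp3 transcript, on the minus strand, is at 106353577 and that of Rrp9, on the plus strand, at 106354443, with 865 bases between them. From the outermost annotated Parp3 start at 106354159 the distance to the canonical Rrp9 start is 283 bases. The annotated Rrp9 gene as a whole starts at 106353162, inside the annotated Parp3 gene, and some annotated exons of the 2 genes overlap on opposite strands. In 1n Strep1 cells Rrp9 rose and Parp3 fell. In 4n cells Parp3 had 1.56, 1.36 and 1.70 RPM in Strep1, against 0.801, 0.895 and 0.737 RPM in Strep2 and 0.899, 0.725 and 0.949 RPM in WT, so that its Strep1 libraries lay above the others, but it did not pass the call rule there.

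The antisense table, made from the same stranded libraries, counts reads on the strand opposite to each gene. Of 92 members tested there in 1n cells, 10 were called between Strep1 and WT, which is 10.9%, beside 0.618% of all genes. These were 4 higher, beside 0.336%, and 6 lower, beside 0.282%. Antisense signal over Rrp9, on the strand of Parp3, was 0.0346, 0.0402 and 0.0606 RPM in Strep1, against 2.20, 2.40 and 2.33 RPM in Strep2 and 2.19, 2.28 and 1.85 RPM in WT libraries (log2 fold change -3.87, limma adjusted p = 1.68e-10). It fell together with Parp3, and since their exons overlap it may hold the same reads. Antisense signal over Pccb was 0.693, 0.974 and 0.788 RPM in Strep1 and at most 0.11 RPM in every Strep2 or WT library of 1n cells, so it was higher on both strands (limma adjusted p = 3.74e-06). This antisense signal reached the filter of 0.3 RPM only in Strep1 libraries. Antisense signal over Abhd14b, on the strand of Abhd14a, was 2.97, 3.49 and 3.14 RPM in Strep1 and 9.78, 9.87 and 9.87 RPM in WT, and fell as Abhd14a did (limma adjusted p = 1.49e-06). Antisense signal over 9630041A04Rik and Mapk6 rose, that over Aste1 rose beside its opposite-strand neighbour Nek11, and that over Myo5a, Trim43c, Tfdp2 and Gpr62 fell.

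**Figure D5:**
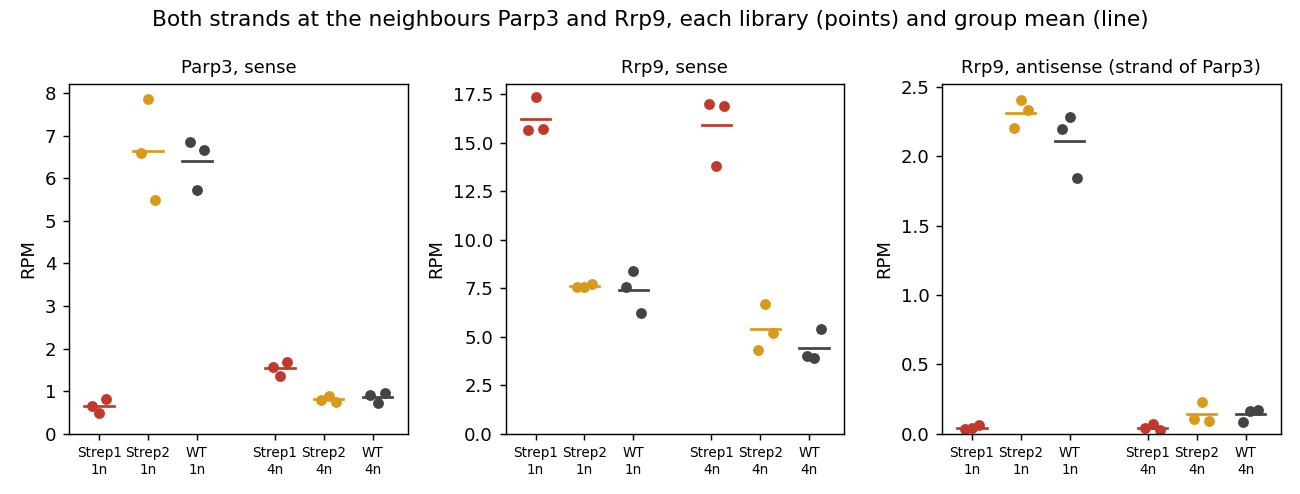
RPM in each library (points) with group means (lines), for Parp3 sense, Rrp9 sense and Rrp9 antisense reads, the last on the strand of Parp3, on linear axes from 0. In 1n cells Strep1 is low in both outer panels and high in the middle one.

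Between the populations most members differed, as most genes did. In Strep1, 150 of 182 members were called between 1n and 4n cells (82.4%, against 82.8% of all genes), 67 higher in 1n, beside 43.9% of all genes, and 83 lower, beside 39%. In WT, 156 of 182 were called (85.7%, against 82.6%), 71 higher, beside 43.2%, and 85 lower, beside 39.4%. The Strep1 comparison lies within one library series and the WT comparison does not, and both use 4n libraries that set the bounds. Without the added scaling of libraries the WT split became 75 higher and 74 lower. Iqcf1, of a testis IQ motif family, averaged 37.3 ± 4.83 RPM in 1n and 1.60 ± 0.589 RPM in 4n Strep1 cells, and Nudt16l2 19.8 ± 4.35 RPM in 1n and 0.622 ± 0.288 RPM in 4n Strep1 cells (SD, n = 3 each). Atr averaged 164 ± 12.1 RPM in 1n and 727 ± 120.2 RPM in 4n Strep1 cells, and Topbp1, its activator, 7.15 ± 0.883 RPM in 1n and 53.8 ± 14.3 RPM in 4n (SD, n = 3 each). In Strep1, 8 of 11 tested genes of the DNA damage list and 10 of 16 of the RNA processing list were lower in 1n cells, while 7 of 10 matrix genes and 4 of 5 of the IQ motif list were higher. Nudt16l2 and Topbp1 were chosen after their values were seen.

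The stage difference of Parp3 had opposite signs in the 2 genotypes. In Strep1 it was lower in 1n than in 4n cells (log2 fold change -1.27, limma adjusted p = 2e-06), and in WT higher in 1n than in 4n cells (2.61, limma adjusted p = 7.91e-11). Whether the courses differ was not itself tested. Rrp9 did not pass the test between populations in Strep1 (log2 fold change -0.09, limma adjusted p = 0.586) and was higher in 1n than in 4n cells in WT (0.55, limma adjusted p = 0.00279).

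Over all 18 libraries, the log2 RPM of Pccb was most like that of Ephb1 (Pearson's r = 0.97), Nek11 (0.95) and Pcbp4 (0.90). That of Parp3 was most like Col6a6 (0.92), Mrap2 (0.91) and Prss35 (0.77). Col6a5 was most like Abhd14a (0.78), Senp6 (0.72) and Mlip (0.65), and Rrp9 most like Nmnat3 (0.97), Gm20509 (0.87) and Onecut1 (0.87). The 18 points share groups, population and library series, so these values only rank the members.

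At the lower bound the last measured genes outside, Pigb, Pigbos1 and Rab27a, had 4n log2 fold changes of Strep1 against WT of 0.15, 0.04 and 0.02, and the first inside, Gm20509, Rsl24d1 and Unc13c, had 0.78, 0.79 and 0.27. At the upper bound the last inside that were measured in 4n cells, Hyal3, Ifrd2 and Gnai2, had -0.16, -0.10 and 0.16, and the first outside, Sema3f, Rbm5 and Rbm6, had -1.56, 0.16 and -0.10. Sema3f, a secreted guidance protein, has its listed start just outside, at 107587523. It averaged 0.136 RPM in 1n Strep1 and 6.88 RPM in 1n WT cells.

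MIWI-bound small RNA from Strep1 testes was also read at the members, which are 245 of the 21834 protein-coding genes in the long RNA table. Summed over the members it made 0.693% to 0.781% of the small RNA on protein-coding genes in the 5 libraries. A mean of at least 1 RPM was reached by 42 members in the sense direction and by 2, Cgas and Ppp2r3a, in the antisense direction, and 33 members were at 0 in the sense direction in all 5 libraries. The same counts over all protein-coding genes were not made, so these are not read as a trait of the stretch. The highest was Zmynd10, a dynein assembly factor of motile cilia, at 26.9 ± 2.74 RPM, followed by Cep63 at 15.0 ± 5.32, Gk5 at 12.2 ± 2.23 and Mapk6 at 10.2 ± 6.74 RPM (mean ± SD, n = 5). None of these 4 was called between Strep1 and WT in sense long RNA. Sense small RNA was 0.251 ± 0.280 RPM on Pccb, 0.0461 ± 0.0624 on Parp3, 0.373 ± 0.358 on Col6a5 and 0.400 ± 0.115 on Rrp9. Small RNA of WT or Strep2 was not analysed here, so no comparison was made.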

How the data were processed

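Long RNA of sorted 1n and 4n testis cells was measured with a stranded total RNA kit after ribosomal RNA depletion, per the labels' protocols. The authors deposited RPM values (reads of a library set against a total that is not given in the sources used here) per gene for the sense and the antisense strand on GRCm39, with reads counted in fractions, so whole reads could not be recovered and no count model was run. The authors also deposited tables of normalized Salmon signal, log2 fold changes and p-values, and their log2 fold changes and adjusted p-values are quoted as deposited. For some genes the deposited folds are far smaller than those of limma even where called. Mrap2 is called there in 1n cells at -0.09, where limma gave -1.84. A small deposited fold is therefore not read as a small difference. The submitters' processing notes list DESeq, DESeq2, Salmon 1.3.0, featureCounts, STAR, Bowtie and cutadapt, with no role given. RPM is not set against gene length, so levels are not compared between genes. Small RNA tables were deposited as RPM by the authors, and 4 of their columns belong to no sample here and were not used. The libraries of a slicing assay on artificial targets were not used.

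A gene entered a fit when 3 or more of its libraries reached 0.3 RPM. After trimmed-mean scaling of the libraries (30% of ratios and 5% of levels trimmed at each end), log2(RPM + 0.1) was fitted with limma 3.58.1 with a trend in R 4.3.3 with data.table at version 1.17.8. Each population's 9 libraries entered one fit, and all 18 entered the fit between populations. P-values were adjusted by Benjamini-Hochberg over all genes of a fit, and genes under 0.05 are called. Folds on this scale understate changes of low genes. Groups came from the titles and genotype labels. Alternatives changed the pseudocount, the filter, the scaling, the libraries in the fit, a replicate block and single libraries. The members and the gene lists were chosen with earlier results of these data known. Named genes are Pccb, Parp3, Col6a5 and Rrp9, the 12 largest 1n calls and 6 largest 4n calls in each direction at 1 RPM or more, members called in Strep2, those at the bounds, neighbours of the 4 genes and the members most like them. Other members are named for their list or after their values were seen.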

Additional observations from a re-analysis of the deposited data

Results flagged for a closer look

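Parp3 stood on opposite sides of WT in the 2 populations of Strep1. Its log2 fold change of Strep1 against WT was -3.16 in 1n cells and 0.71 in 4n cells. In 1n cells the 3 Strep1 libraries lay below the 6 other libraries, and in 4n cells they lay above them, where the difference did not pass the call rule. Col6a6 showed the same order of libraries in both populations, but it was too low to test in 4n cells. The difference between the populations was not tested, and the 4n comparison was used to bound the stretch. In the authors' deposited table Parp3 was not called in 4n cells, with a log2 fold change of 0.02 on a scale unlike that of limma.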

How the results depend on the processing

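The count of members called between Strep1 and WT in 1n cells, 32, was 31 with a pseudocount of 1, 29 with a filter of 1 RPM, 22 with no filter on low values, 32 without further scaling and 27 when only the compared groups were fitted. Leaving out single libraries gave 21 to 33 calls, and the lowest was without Strep1 replicate 3. With the replicate number as a replicate block it was 32. Deviations of libraries with the same number showed no steady likeness, with correlations from -0.46 to 0.45. This does not exclude a pairing by number, and the block is given only as an alternative. With the block, Strep1 against Strep2 had 32 calls beside 29, and 17 members beside 20 passed the rule between Strep1 and WT in 4n cells. Leaving out single libraries gave 24 to 29 calls for Strep1 against Strep2, 0 for Strep2 against WT in both populations, 16 to 19 members past the rule in 4n cells, and 143 to 151 calls in Strep1 and 147 to 153 in WT between populations. Among single named genes no called fold changed sign. Those of Ifrd2, Iqcf1, Sema3b and Slc35g2, which were not called, did so under at least 1 alternative, within -0.10 to 0.42. With no filter 7 called genes lost their call: Cpne4, Pik3cb, Armc8, Col6a4, Tmod2, Mthfsl and Mrap2. The 46 named genes followed there include many that had no call to lose. With a pseudocount of 1 Col6a6 and Mrap2 lost theirs, and in the authors' deposited table Snap91, Adamts7 and Mthfsl were not called. The cause was not tested. Depth limits low genes most, since 1 RPM stands for 33 to 63.2 reads and 63 members were too low to test in either population. With 3 libraries a group, small folds may be missed. Library series and genotype coincide for Strep1 in 1n cells and cannot be told apart there.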
